A study of Mus musculus with 29 samples.

Results

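Transcripts of the common gamma chain cytokine pathway were followed in mouse brain 21 days after a photothrombotic stroke, in which a light-activated dye closes cortical vessels. The set holds 10 genes out of 25746 in the count table, chosen by name for their place in the pathway: the common gamma chain Il2rg, the receptor chains Il2rb, Il2ra, Il7r, Il4ra, Il21r and Il15ra, the cytokine Il15, the kinase Jak3 and the transcription factor Stat5a. All 10 passed the filter on low counts and were tested. The 29 samples fall into 8 groups of mice aged 3 months, of both sexes. Wildtype (WT) animals were C57BL/6J mice and gave 4 non-stroked and 4 stroked samples. Rag2-/- mice carry a deletion that prevents mature T and B cells and gave 3 non-stroked and 3 stroked samples. NSG mice combine the NOD background with the Prkdc scid mutation and a null allele of Il2rg, lack T, B and NK cells, and gave 4 non-stroked and 3 stroked samples. Strain background and alleles cannot be told apart in NSG mice. Tacrolimus, a calcineurin inhibitor that blocks T cell activation, was given to stroked WT mice from day 0 (WT-Tacr acute, 3 samples) or from day 7 (WT-Tacr delayed, 5 samples). No tacrolimus group without stroke was analysed here. The non-stroked samples are described by the study both as contralesional tissue and as naive mice, and the labels do not settle which.

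Interleukins 2, 4, 7, 9, 15 and 21 signal through receptors that all contain the common gamma chain. Each receptor adds private chains that set which cytokine is bound. JAK3 sits on the common gamma chain, and together with JAK1 it phosphorylates STAT factors such as STAT5, which then enter the nucleus. Lymphocytes and NK cells depend on this pathway for their survival, and microglia and other myeloid cells also use parts of it, above all the receptors for interleukin 4 and interleukin 21.

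Total counts per sample ran from 17789044 to 43403413. The labels name 2 cohorts: Imm2 holds 20 samples, among them every non-stroked sample, and TF holds 9 samples, among them all 5 of the delayed group. Stroked WT mice came from Imm2 (replicates 1 and 2) and TF (replicates 3 and 4), and the acute group from Imm2 (replicate 1) and TF (replicates 2 and 3). For acute replicates 1 and 2 the deposited file names carry other numbers than the sample titles, so which sample each file holds is in doubt. The acute group was uneven: the summed level of 7 microglia and macrophage genes was 412 counts scaled to library size (CPM) in replicate 3, against 231 and 246 CPM in replicates 1 and 2, beside 183 to 215 CPM in non-stroked WT mice. B230118H07Rik, whose span contains Rag2, had 0 to 4 counts in each Rag2-/- sample and at least 274 counts in every other sample. Cd3e, a chain of the T cell receptor complex, reached 28 counts in a stroked WT sample and stayed at 0 to 2 counts in every Rag2-/- and NSG sample. In tissue samples like these, fewer cells of a type and less RNA per cell cannot be told apart.

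After stroke, 6 of the 10 genes rose in WT mice: Il2rg, Il2rb, Il7r, Il4ra, Il21r and Il15. A gene was called when its adjusted p in edgeR's quasi-likelihood test was below 0.05 and its absolute log2 fold change above 1, which held for 7.3% of the 17031 genes tested in that comparison. The median log2 fold change of the 10 genes was 1.12, beside -0.000445 over all genes tested. In WT mice 7 of the 10 genes had every stroked sample above every non-stroked one, as did 16.3% of all genes. The same held for 9 members in Rag2-/- mice (18.8% of all genes), 8 in the delayed group (26.5%), 5 in NSG mice (13.6%) and 2 in the acute group (10.4%). In Rag2-/- mice 3 genes rose (Il2rg, Il7r and Il21r), against 4.33% of all genes called. In NSG mice 2 genes rose (Il21r and Il15), against 5.48% of all genes called. In the acute group 3 genes rose against non-stroked WT mice (Il2rg, Il2rb and Il21r; 2.58% of all genes called), and in the delayed group 7 rose (Il2rg, Il2rb, Il2ra, Il7r, Il4ra, Il21r and Il15; 15.5% of all genes called). No member fell in these 5 comparisons, of which 3 share the same non-stroked WT samples. Il21r was called in all 5 comparisons, whereas Il15ra, Jak3 and Stat5a were called in none at this threshold. Within Imm2 alone, 4 of the 6 genes were called in WT mice, and Il4ra (log2 fold change 0.88, adjusted p = 0.00491) and Il15 (0.78, adjusted p = 0.226) were not.

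**Figure D1:**
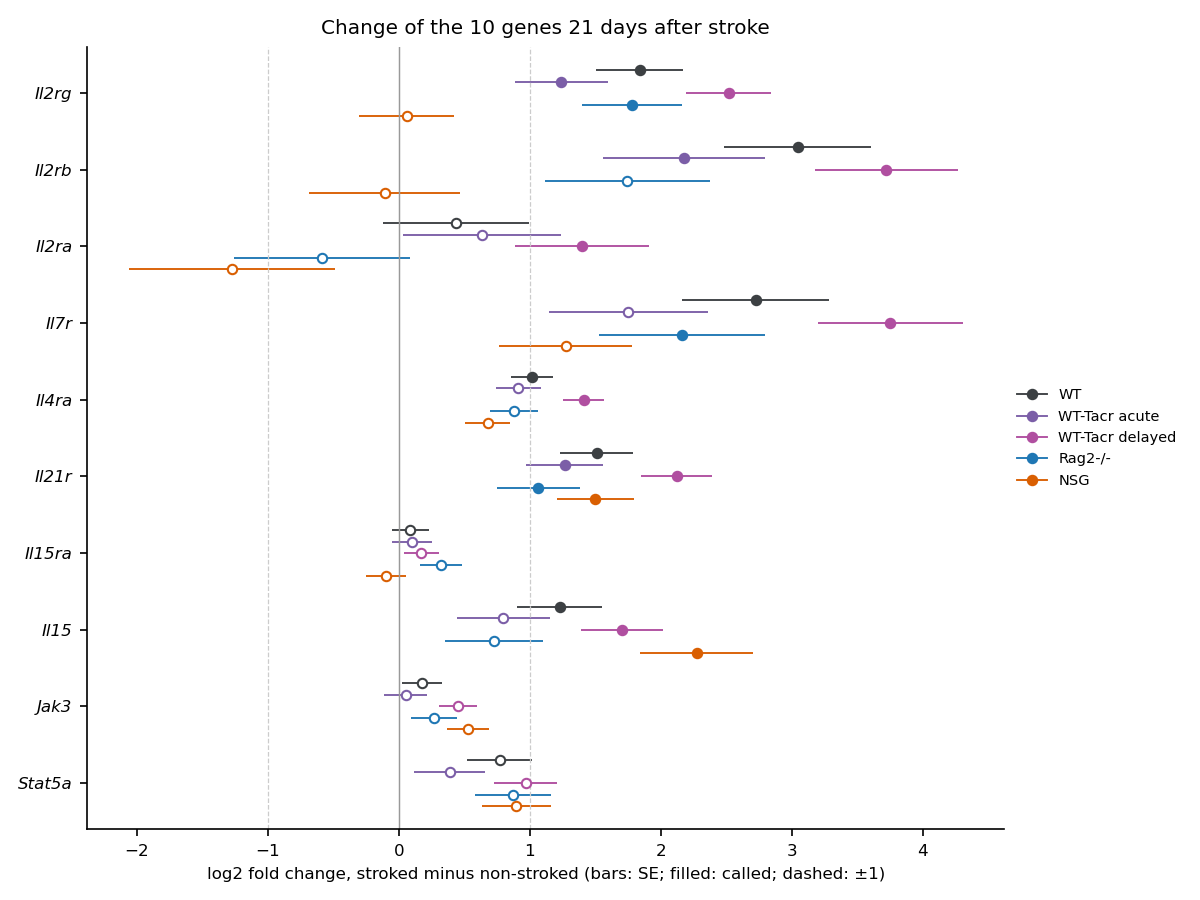
Log2 fold change (x axis) of each of the 10 genes (rows) between stroked and non-stroked mice, in 5 groups told apart by color, with the SE as bars and filled points for called genes. Il2rg lies near 0 in NSG mice and between 1.24 and 2.52 in the 4 other groups, and the Il2ra value in NSG mice rests on 1 or 2 counts per stroked sample and is no estimate of size.

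**Figure D2:**
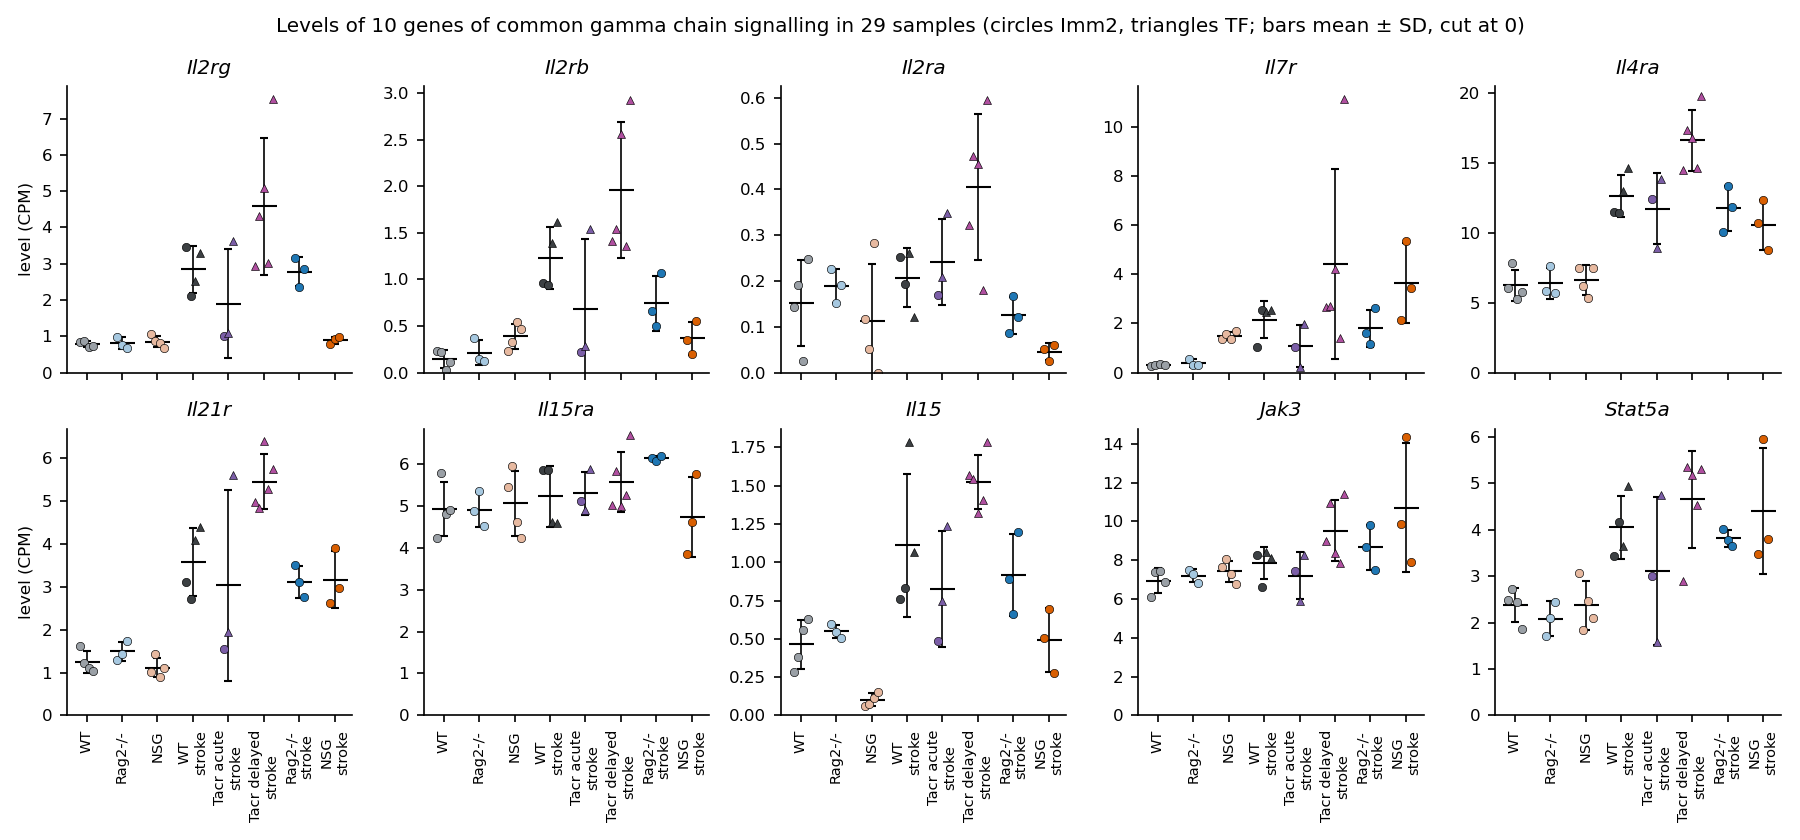
Level in CPM (y axes, from 0) of each gene in every sample of the 8 groups (x axis), with circles for Imm2, triangles for TF, and the mean and SD as bars. Il2rg sits at or below 1.05 CPM in all 11 non-stroked and all 3 stroked NSG samples, and at 2.11 CPM or above in every stroked WT, delayed and Rag2-/- sample.

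Il2rg encodes the shared chain itself and lies on chromosome X (chrX:101264378-101268255, minus strand, GRCm38). Its level was 0.854, 0.871, 0.716 and 0.742 CPM in the non-stroked WT samples and 3.46, 2.11, 2.52 and 3.30 CPM in the stroked ones. In Rag2-/- mice it was 0.991, 0.760 and 0.667 CPM without stroke and 3.16, 2.36 and 2.85 CPM with stroke. In both strains every stroked sample lay above every non-stroked one. Il2rg thus rose in WT (log2 fold change 1.84, SE 0.33, adjusted p = 0.000282) and in Rag2-/- mice (1.78, SE 0.38, adjusted p = 0.00403), and both calls held whichever sample was left out. In stroked mice, Rag2-/- and WT levels were apart by a log2 fold change of -0.03 (SE 0.33, adjusted p = 0.983).

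In NSG mice Il2rg was 1.05, 0.863, 0.822 and 0.681 CPM without stroke and 0.784, 0.914 and 0.979 CPM with stroke. The stroked samples lie within the range of the non-stroked ones, and no change was called after stroke (log2 fold change 0.06, SE 0.37, adjusted p = 0.926). Stroked NSG mice were below stroked WT mice (log2 fold change -1.67, SE 0.36, adjusted p = 0.00263), a difference called in every alternative run. The difference between the stroke responses of NSG and WT mice was -1.78 (SE 0.49, adjusted p = 0.156), and between NSG and Rag2-/- mice -1.72 (SE 0.53, adjusted p = 0.468), and neither passed. Of all 17031 genes only 0.0117% were called in the former test and 0% in the latter. Ptprc, the common leukocyte gene, did rise in NSG mice (log2 fold change 1.74, SE 0.37, adjusted p = 0.00201), as in WT mice (2.34, SE 0.36, adjusted p = 7.57e-05).

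The Il2rg count of an NSG sample needs care, because another annotated gene shares its exons. Gm20489, a transcript that runs from upstream of Il2rg through Il2rg into its downstream neighbor Gm614 on the same strand (chrX:101261405-101269023), shares 728 of the 2387 exonic bases of Il2rg, or 30.5%. These include all of exons 3 to 7 of the main Il2rg transcript and 73 of the 660 bases of exon 8. Gm614 (chrX:101261376-101263992) lies downstream of Il2rg and shares 551 of its 774 exonic bases with Gm20489. These neighbors were examined after the counts were seen, and a count per gene does not say on which exon a read fell.

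Gm614 had 78, 69, 77 and 50 counts in the non-stroked and 68, 90 and 72 counts in the stroked NSG samples, against 0 to 2 counts in each of the 22 other samples. With the WT samples set to a floor of 3 counts each, Gm614 was at least 23.6-fold higher in non-stroked NSG than WT mice. Gm20489 moved likewise, with 76, 66, 72 and 48 counts in non-stroked NSG mice and 13, 9, 18 and 13 counts in non-stroked WT mice (log2 fold change 2.34, SE 0.39, adjusted p = 0.000134). In the 22 other samples Gm20489 held 8 to 74 counts. It rose after stroke in WT (log2 fold change 1.75), delayed (2.54) and Rag2-/- mice (1.82), and was not called after stroke in NSG mice (-0.03). Per Il2rg read, Gm20489 had 1.94 to 2.48 reads in NSG samples and 0.281 to 0.667 reads in the others, so the 2 ranges do not overlap. The split of counts among the 3 genes thus set all 7 NSG samples apart from every other sample. Reads in the shared exons could not be assigned here to either gene, and their part in the NSG level of Il2rg was not tested.

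**Figure D3:**
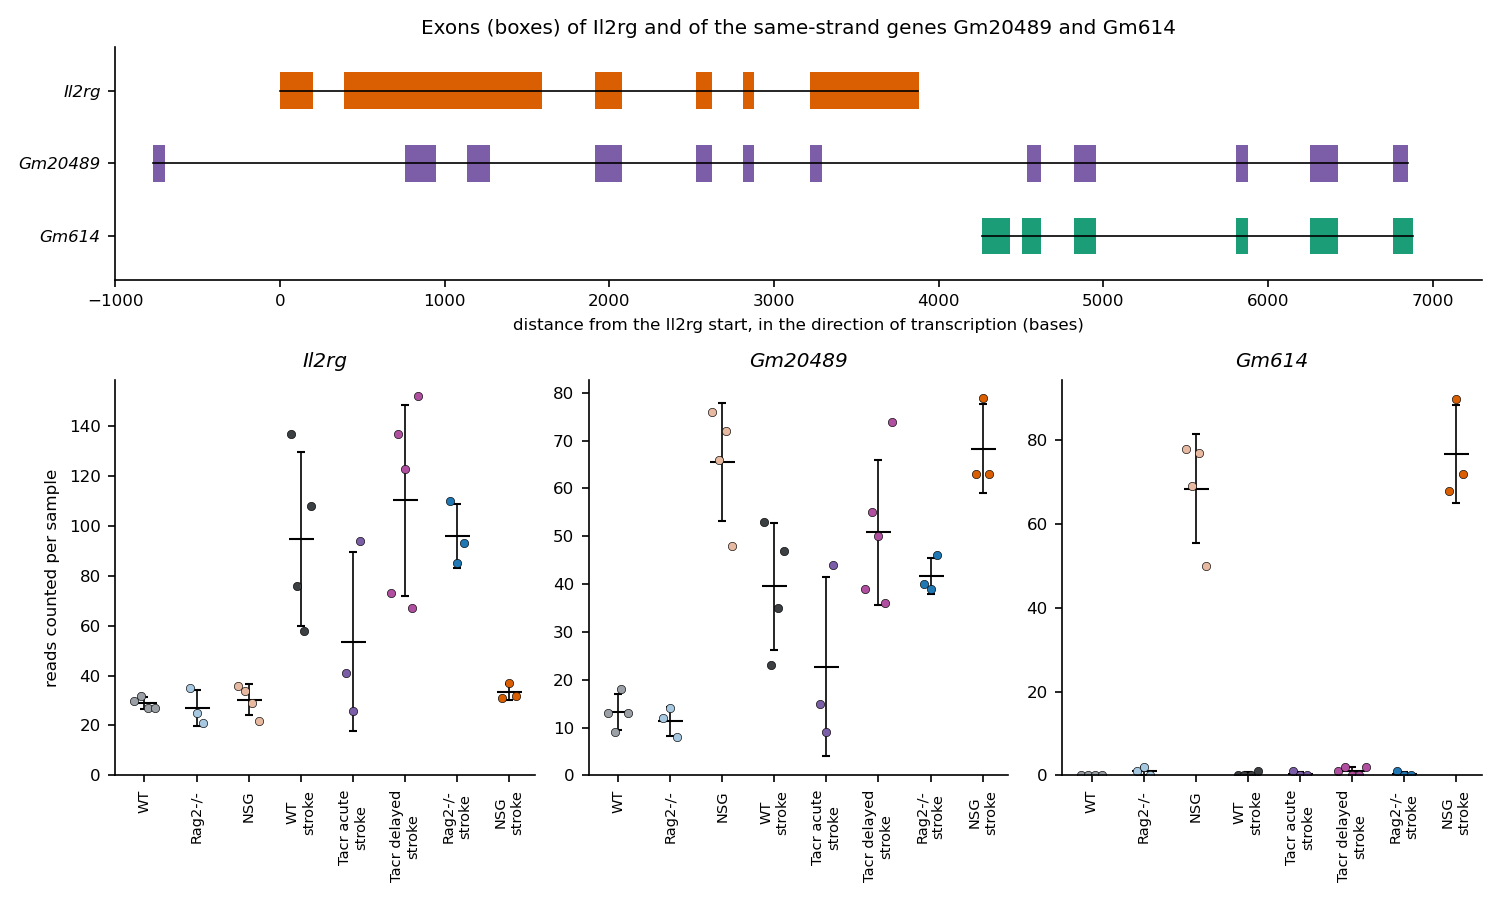
Top, exons of Il2rg, Gm20489 and Gm614 (all annotated transcripts merged) by distance in bases from the Il2rg start. Bottom, reads counted per sample (y axes) for the 3 genes in the 8 groups, with mean and SD, where Gm614 reaches 50 to 90 reads in NSG samples and at most 2 in the others.

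Il2rb, on chromosome 15 (chr15:78479256-78495271, minus strand), encodes the chain that the interleukin 2 and interleukin 15 receptors share. It had 0.228, 0.218, 0.0265 and 0.110 CPM in non-stroked and 0.959, 0.945, 1.39 and 1.62 CPM in stroked WT samples, which did not overlap. The log2 fold change of 3.05 (SE 0.56, adjusted p = 0.00038) was the largest of the 10 genes in WT mice. It rests on 8, 8, 1 and 4 reads in the non-stroked samples, and ran from 2.48 to 3.34 in the alternatives. In Rag2-/- mice the levels went from 0.368, 0.152 and 0.127 CPM to 0.660, 0.499 and 1.07 CPM. These samples did not overlap either, but the change did not pass (log2 fold change 1.74, SE 0.63, adjusted p = 0.0902). It did pass when only Imm2 (1.76, adjusted p = 0.0438) or only the groups compared (1.74, adjusted p = 0.0365) were fitted.

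In NSG mice Il2rb was 0.234, 0.330, 0.539 and 0.464 CPM without stroke and 0.354, 0.198 and 0.551 CPM with stroke. These overlapping values give a log2 fold change of -0.11 (SE 0.58, adjusted p = 0.912). Non-stroked NSG samples were all above the non-stroked WT samples, by 1.41 (SE 0.60, adjusted p = 0.146), and stroked NSG samples were all below the stroked WT samples, by -1.74 (SE 0.55, adjusted p = 0.038). The stroked difference was no longer called within Imm2 (-1.39, adjusted p = 0.162) or without NSG replicates 1 or 2 or WT replicates 3 or 4. The response difference between NSG and WT mice was -3.16 (SE 0.81, adjusted p = 0.126). It was called by DESeq2 and without stroked NSG replicate 3 (-3.53, adjusted p = 0.0435). NK cells, which carry Il2rb, are lacking in NSG mice, and Ncr1, their defining gene, had at most 8 counts in any of the 29 samples. Of 5 NK cell genes 3 were tested, and Klrb1c, Klrk1 and Eomes all rose after stroke in WT mice and in the delayed group, Klrb1c and Klrk1 rose in Rag2-/- mice, and none was called in NSG mice or the acute group. In stroked NSG mice Eomes was lower than in stroked WT mice (log2 fold change -4.27, SE 1.34, adjusted p = 0.0355). In non-stroked NSG samples the 5 NK cell genes summed to 0.155 to 8.96 CPM. All of them but Eomes held at most 3 counts in every such sample. The highest sum thus came almost wholly from Eomes, in mice that lack NK cells, so Eomes is no measure of NK cells here. In the acute group Il2rb was called and the tested NK cell genes were not. That Il2rb call was lost in several fits, among them the one without acute replicate 3 (0.76, adjusted p = 0.615). In Rag2-/- mice Klrb1c and Klrk1 were called, and Il2rb was called only within Imm2 or with only the groups compared. The part of NK cells in the changes of Il2rb was not tested.

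**Figure D4:**
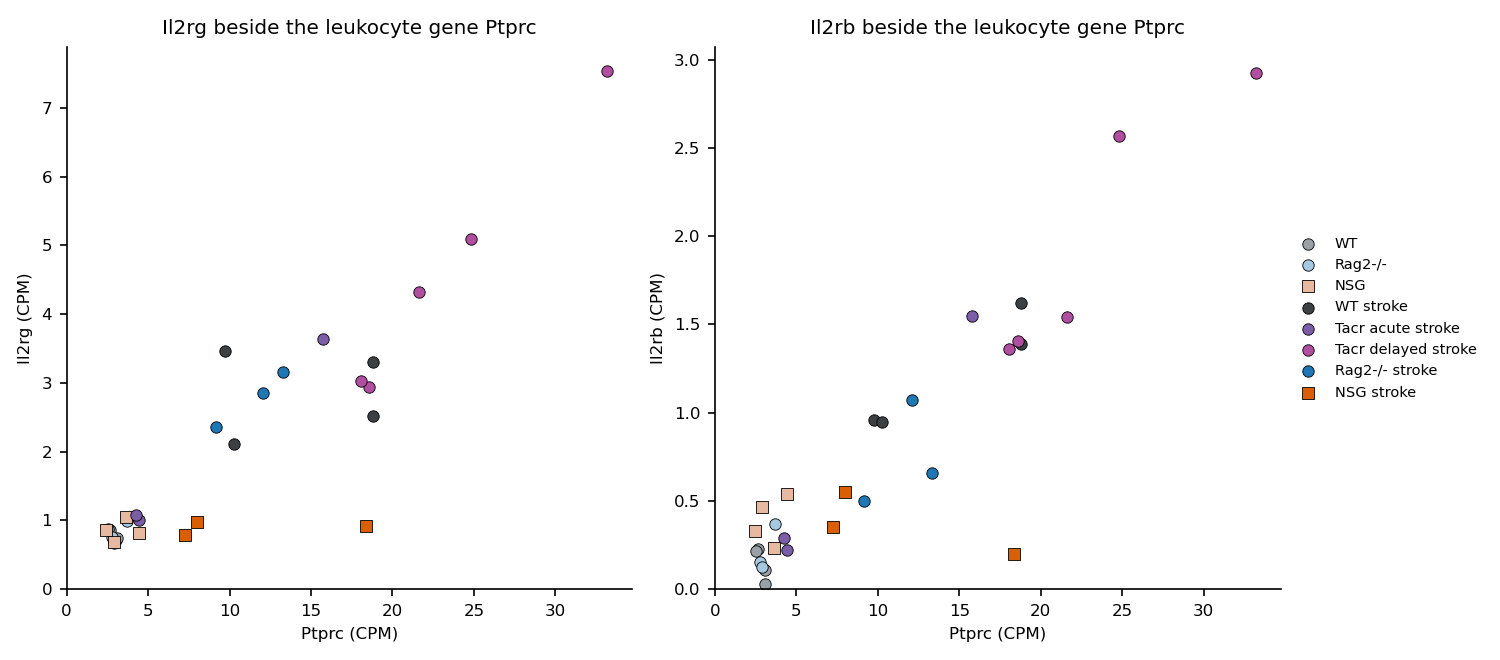
Level of Il2rg (left) and Il2rb (right) in CPM against the level of the leukocyte gene Ptprc in CPM, with a point per sample and squares for NSG mice. Stroked NSG samples reach 7.26 to 18.4 CPM of Ptprc while Il2rg stays at or below 0.979 CPM and Il2rb at or below 0.551 CPM.

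Il2ra encodes the chain that gives the interleukin 2 receptor its high affinity (chr2:11642807-11693193, plus strand), and it was barely counted. No sample held more than 15 reads, and stroked NSG samples held 2, 1 and 2 reads, below the floor of 3 counts. The delayed group had 0.322, 0.472, 0.455, 0.181 and 0.595 CPM, against 0.142, 0.190, 0.0265 and 0.247 CPM in non-stroked WT mice. That rise was called (log2 fold change 1.40, SE 0.51, adjusted p = 0.0233) although the groups overlap. It was lost without non-stroked WT replicate 4 (1.05, adjusted p = 0.0843), without delayed replicate 5 (1.24, adjusted p = 0.0581), and with the cohort as a covariate (1.28, adjusted p = 0.331).

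Il7r encodes a chain of the interleukin 7 receptor (chr15:9505788-9530176, minus strand), which transmits a survival signal in lymphocytes. In WT mice it went from 0.285, 0.299, 0.371 and 0.330 CPM to 1.04, 2.56, 2.48 and 2.57 CPM after stroke. It rose by 2.72 on the log2 scale (SE 0.56, adjusted p = 0.00105), with no overlap. In Rag2-/- mice it rose from 0.566, 0.304 and 0.318 CPM to 1.61, 1.16 and 2.64 CPM (log2 fold change 2.16, SE 0.64, adjusted p = 0.0335). That call was lost when any of the 3 non-stroked samples, or stroked replicates 1 or 3, were left out (adjusted p = 0.0667 to 0.136).

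Among non-stroked samples those of NSG mice had more Il7r, at 1.37, 1.57, 1.36 and 1.70 CPM. All 4 values exceed every non-stroked WT and Rag2-/- sample. The difference from WT mice was called (log2 fold change 2.21, SE 0.56, adjusted p = 0.0108) and held in every alternative. The difference from Rag2-/- mice was 1.90 (SE 0.61, adjusted p = 0.064), which passed within Imm2 (adjusted p = 0.00634). Stroked NSG samples reached 2.13, 5.36 and 3.43 CPM, above all non-stroked ones (log2 fold change 1.27, SE 0.51, adjusted p = 0.072). That rise was called within Imm2 (1.27, adjusted p = 0.0132). Against stroked WT mice the difference was 0.76 (SE 0.50, adjusted p = 0.335). Il7r and Il15 were the members called between non-stroked NSG and WT mice, against 3.36% of all genes.

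Promoters of 8 of the 10 genes are in the RefSeq table (GRCm38.p6), each from 250 bases before to 50 bases after a transcript start. Those of Il2rg (chrX:101268206-101268505, minus strand) and Il7r (chr15:9529827-9530126, minus strand) are printed. Both are receptor genes that rose in WT and in Rag2-/- mice. Il21r did so too, but its promoter, which holds neither motif named below, is not printed.

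Il2rg: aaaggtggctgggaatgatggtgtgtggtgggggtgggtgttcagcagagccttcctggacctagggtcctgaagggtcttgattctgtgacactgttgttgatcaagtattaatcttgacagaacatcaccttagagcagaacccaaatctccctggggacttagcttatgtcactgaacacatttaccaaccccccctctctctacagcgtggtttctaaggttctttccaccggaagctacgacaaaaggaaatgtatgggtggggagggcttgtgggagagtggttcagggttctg

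Il7r: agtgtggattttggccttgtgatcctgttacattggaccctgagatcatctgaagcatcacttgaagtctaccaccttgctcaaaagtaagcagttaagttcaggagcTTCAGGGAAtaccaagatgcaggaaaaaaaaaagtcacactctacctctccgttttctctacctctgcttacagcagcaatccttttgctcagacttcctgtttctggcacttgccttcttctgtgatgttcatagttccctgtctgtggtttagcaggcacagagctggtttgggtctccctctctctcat

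The capitals in the Il7r promoter mark the palindromic letters TTCNNNGAA, the core that STAT factors bind. The motif occurs in 1 of the 10 promoter windows of these genes and in 8.30% of all 32851 windows of the same length. The letters GAGGAAGT, of the kind ETS factors bind, were searched on both strands and occur in 0 of the 10 windows and in 3.20% of all. Both motifs were picked with the expression results known, and a match describes letters only.

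Il4ra encodes the interleukin 4 receptor chain (chr7:125552120-125579474, plus strand), which also pairs with Il13ra1 to bind interleukin 13. It had the highest mean level per length of the 10 genes in every stroked group except NSG, where Jak3 was higher, with 2.11 CPM per kilobase of exon (RPKM) in stroked and 1.04 RPKM in non-stroked WT samples. In CPM it went from 6.06, 7.86, 5.28 and 5.80 in non-stroked to 11.5, 11.4, 13.0 and 14.7 in stroked WT samples (log2 fold change 1.02, SE 0.16, adjusted p = 8.47e-05), just past the minimum fold. The other strains moved alike but did not reach that fold, at 0.88 in Rag2-/- mice (SE 0.18, adjusted p = 0.00356) and 0.68 in NSG mice (SE 0.17, adjusted p = 0.00644). Stroked samples lay above all non-stroked samples of their strain in each case. The WT change fell below the minimum fold without non-stroked replicates 4 or 5 or stroked replicate 4 (0.94 to 0.98), with adjusted p still at most 0.000616.

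Il21r, next to Il4ra on chromosome 7 (chr7:125603429-125633570, plus strand), encodes the private chain of the interleukin 21 receptor. It rose in every strain without overlap. WT samples went from 1.62, 1.22, 1.11 and 1.04 CPM to 3.11, 2.72, 4.09 and 4.40 CPM (log2 fold change 1.51, SE 0.28, adjusted p = 0.000371). NSG samples went from 1.02, 1.42, 0.907 and 1.11 CPM to 2.63, 3.90 and 2.97 CPM (1.499, SE 0.29, adjusted p = 0.00107). Rag2-/- samples went from 1.30, 1.43 and 1.75 CPM to 3.50, 3.10 and 2.76 CPM (1.06, SE 0.32, adjusted p = 0.0361). The Rag2-/- call was lost when any sample other than stroked replicate 3 was left out (adjusted p = 0.0649 to 0.155). The NSG rise was called in every alternative, whereas Il2rg was called in none.

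Il15ra, which presents interleukin 15 to neighboring cells (chr2:11705290-11734317, plus strand), hardly moved. Group means ran from 4.74 CPM in stroked NSG to 6.13 CPM in stroked Rag2-/- mice. The log2 fold changes after stroke lay between -0.10 and 0.32, and none was called.

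Il15 encodes the cytokine that NK cells need (chr8:82331632-82403222, minus strand). It had 0.285, 0.381, 0.557 and 0.632 CPM in non-stroked and 0.757, 0.833, 1.78 and 1.07 CPM in stroked WT samples (log2 fold change 1.23, SE 0.33, adjusted p = 0.00775). The 2 TF samples were the higher of the 4 stroked ones, and without replicate 3 of these the value was 0.92 (adjusted p = 0.0493). Rag2-/- samples went from 0.595, 0.547 and 0.508 CPM to 0.889, 0.665 and 1.20 CPM without overlap, a change that was not called (0.73, SE 0.37, adjusted p = 0.261).

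Non-stroked NSG samples had 2, 3, 4 and 5 Il15 reads, or 0.0585, 0.0762, 0.113 and 0.155 CPM, the lowest of any group and apart from every other sample. Il15 was thereby lower than in non-stroked WT (log2 fold change -2.18, SE 0.41, adjusted p = 0.000715) and Rag2-/- mice (-2.42, SE 0.43, adjusted p = 0.000436). It was the only member called between NSG and Rag2-/- mice without stroke, where 2.8% of all genes were called. After stroke, NSG samples held 0.506, 0.692 and 0.275 CPM, a called rise (2.27, SE 0.43, adjusted p = 0.000828) to levels that overlap those of non-stroked WT mice. They remained below every stroked WT sample (-1.13, SE 0.35, adjusted p = 0.0352). This last call was lost within Imm2 (-0.68, adjusted p = 0.385) and without NSG replicates 1 or 3 or WT replicates 3 or 4. The stroke responses of NSG and WT mice differed by 1.05 (SE 0.54, adjusted p = 0.414).

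**Figure D5:**
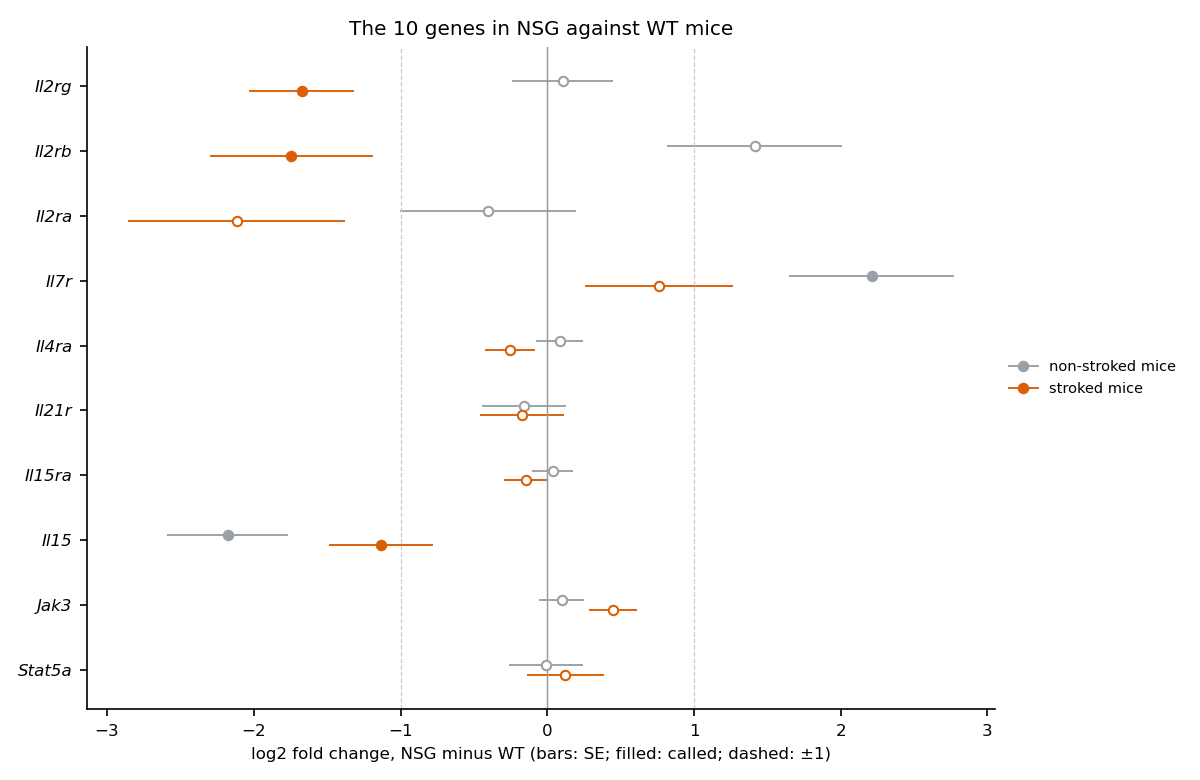
Log2 fold change (x axis) of each gene (rows) between NSG and WT mice, without stroke in grey and with stroke in orange, with the SE as bars and filled points for called genes. Il7r was higher and Il15 lower in non-stroked NSG mice, and Il2rg, Il2rb and Il15 were lower in stroked NSG mice.

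Between stroked NSG and WT mice, 3 members were called lower and none higher, while 3.26% of all genes were called. Non-stroked Rag2-/- and WT mice differed in 0 members, with 0 also at an unadjusted p below 0.05 and 0 by DESeq2, and in 0.00587% of all genes. Stroked Rag2-/- and WT mice likewise differed in 0 members at either level and by DESeq2, again with 0.00587% of all genes called. The responses of Rag2-/- and WT mice differed in 0 members as well, at either level and by DESeq2, and in 0% of all genes.

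JAK3, the kinase bound to the common gamma chain, is encoded by Jak3 (chr8:71676296-71690575, plus strand), which was the highest member per length without stroke, at a mean of 1.30 RPKM in WT mice. Its level of 6.09, 7.40, 7.42 and 6.87 CPM in non-stroked and 8.26, 6.61, 8.43 and 8.13 CPM in stroked WT samples overlaps (log2 fold change 0.18, SE 0.15, adjusted p = 0.407). It changed by 0.45 in the delayed group (SE 0.15, adjusted p = 0.0107) and 0.53 in NSG mice (SE 0.16, adjusted p = 0.0217), below the minimum fold. Jak3 shares 404 of its 5352 exonic bases with Insl3.

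Stat5a (chr11:100859351-100885169, plus strand) encodes a transcription factor that carries the signal to the nucleus. It had 2.48, 2.72, 2.44 and 1.87 CPM in non-stroked and 3.43, 4.17, 3.65 and 4.95 CPM in stroked WT samples, without overlap. The change was below the minimum fold in WT (log2 fold change 0.77, SE 0.25, adjusted p = 0.0245), NSG (0.90, SE 0.26, adjusted p = 0.0173) and delayed mice (0.97, SE 0.24, adjusted p = 0.00156). In Rag2-/- mice it was 0.87 (SE 0.29, adjusted p = 0.0624), with all stroked samples above the non-stroked ones.

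In mice on tacrolimus from day 0, Il2rg, Il2rb and Il21r varied between samples. In the acute group Il2rg was 0.998, 1.08 and 3.63 CPM, Il2rb 0.219, 0.291 and 1.55 CPM, and Il21r 1.56, 1.96 and 5.60 CPM. For these 3 genes replicates 1 and 2 lie near non-stroked mice and replicate 3 lies among stroked ones, as do its Ptprc (15.8 CPM, against 4.43 and 4.25 CPM) and microglia genes. The called rises, which were 1.24 for Il2rg (SE 0.35, adjusted p = 0.0332), 2.18 for Il2rb (SE 0.62, adjusted p = 0.0318) and 1.27 for Il21r (SE 0.30, adjusted p = 0.0139), rest on that sample. Without it the values were 0.37, 0.76 and 0.47, and 0 members were called. Without replicate 2 the count was 5, and without non-stroked WT replicates 1, 4 or 5 it was 1. The log2 fold changes of Il7r (1.75, SE 0.61, adjusted p = 0.068) and Il15 (0.80, SE 0.36, adjusted p = 0.146) did not pass, and that of Il4ra was 0.91 (SE 0.17, adjusted p = 0.00414). Astrocyte genes summed to 378, 448 and 1187 CPM in the acute samples. In WT mice they summed to 275 to 365 CPM without and 1039 to 1431 CPM with stroke. Fibroblast genes summed to 27.7, 52.5 and 295 CPM, beside 25.1 to 36.3 and 203 to 473 CPM. The files of replicates 1 and 2 are those whose sample is in doubt. How much lesion tissue each acute sample held, and its part in these values, was not tested.

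With tacrolimus from day 7, Il2rg, Il2rb, Il2ra, Il7r, Il4ra, Il21r, Il15 and Stat5a had their highest group means. Il2rg stood at 2.94, 4.32, 5.09, 3.03 and 7.54 CPM, Il2rb at 1.41, 1.54, 2.57, 1.36 and 2.93 CPM, and Il7r at 2.65, 2.71, 4.22, 1.40 and 11.1 CPM. Every one of these 15 values lies above all non-stroked WT samples, and replicate 5 is the highest for each gene. Against non-stroked WT mice the log2 fold change was 2.52 for Il2rg (SE 0.32, adjusted p = 1.61e-06), 3.72 for Il2rb (SE 0.55, adjusted p = 7.33e-06) and 3.75 for Il7r (SE 0.55, adjusted p = 7.21e-06). Il4ra rose by 1.41 (SE 0.15, adjusted p = 3.96e-07), Il21r by 2.12 (SE 0.27, adjusted p = 1.55e-06) and Il15 by 1.71 (SE 0.31, adjusted p = 8.68e-05). All delayed samples are from TF and all non-stroked ones from Imm2. With the cohort as a covariate 5 members were called, at 2.03 for Il2rg, 2.63 for Il2rb, 3.40 for Il7r, 1.30 for Il4ra and 1.30 for Il21r, and Il15 (0.81, adjusted p = 0.213) was not.

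Delayed against acute treatment, Il2rg (log2 fold change 1.28, SE 0.33, adjusted p = 0.0133), Il2rb (1.55, SE 0.52, adjusted p = 0.0364) and Il7r (2.001, SE 0.54, adjusted p = 0.0151) were higher, beside 5.75% of all genes called. Il4ra (0.50, SE 0.16, adjusted p = 0.0337), Il21r (0.86, SE 0.28, adjusted p = 0.0336) and Il15 (0.91, SE 0.33, adjusted p = 0.0547) were not called. The count was 5 without acute replicate 3, 0 without acute replicates 1 or 2, and 1 without delayed replicate 5. With the cohort as a covariate the Il2rb call was lost (1.31, adjusted p = 0.0812). Ptprc was also higher in the delayed group, by 1.52 (SE 0.37, adjusted p = 0.0116), as were all 3 fibroblast genes (median log2 fold change 2.30), the choroid plexus genes Kl and Folr1, the NK cell genes Klrb1c and Klrk1, Cd79b, Gfap, Aif1, Cd68, Ly6c2 and Itgax. The part of these cells, and of how much choroid plexus a sample held, in the receptor differences was not tested.

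Against stroked WT mice, neither regimen had a member called, and edgeR called 0% of all genes in both comparisons. DESeq2 called 0 members in both. At an unadjusted p below 0.05 there were 0 members for the acute and 4 for the delayed group, where 20.3% of all genes were. The log2 fold changes of the acute group were -0.60 for Il2rg (SE 0.34, adjusted p = 0.468), -0.87 for Il2rb (SE 0.53, adjusted p = 0.501) and -0.97 for Il7r (SE 0.55, adjusted p = 0.465). Without acute replicate 3, 3 members were called lower, and the share of all genes called in that fit is not given here. In the delayed group they were 0.68 for Il2rg (SE 0.29, adjusted p = 0.208), 0.67 for Il2rb (SE 0.44, adjusted p = 0.374), 1.03 for Il7r (SE 0.46, adjusted p = 0.22) and 0.61 for Il21r (SE 0.25, adjusted p = 0.194).

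The cytokines that bind these receptors were close to absent from the tissue RNA, apart from Il15. Il2, the T cell growth factor, had at most 4 counts in any sample, Il4 at most 2 and Il9 at most 1. Il7 had 1 to 15 counts and Tslp 1 to 13, and neither was called in any comparison after stroke. Il21 had 7, 10, 7 and 8 counts in non-stroked and 10, 7 and 3 in stroked NSG samples, against at most 4 counts in the 22 other samples, too few for a test. Counts this low do not show that a cytokine is missing from the tissue.

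Of 24 further pathway genes on a list of ligands, receptor chains, kinases, transcription factors, feedback inhibitors and target genes, 19 were tested. After stroke 3 rose in WT mice (7.3% of all genes called), 1 in the acute group (2.58%), 2 in Rag2-/- (4.33%) and 2 in NSG mice (5.48%). None fell in any of the 5 comparisons. Socs3, which dampens JAK signalling, rose in WT (log2 fold change 1.33, SE 0.23, adjusted p = 0.000179), acute (1.24, SE 0.24, adjusted p = 0.00532), delayed (1.14, SE 0.22, adjusted p = 0.000144) and NSG mice (1.06, SE 0.24, adjusted p = 0.00328). Ptpn6, a phosphatase of blood cells that removes phosphate from JAK proteins, rose in WT (1.43, SE 0.25, adjusted p = 0.000273), delayed (2.01, SE 0.25, adjusted p = 1.18e-06), Rag2-/- (1.43, SE 0.29, adjusted p = 0.00309) and NSG mice (1.43, SE 0.27, adjusted p = 0.000755). Il13ra1, the other partner of Il4ra, rose in WT (1.31, SE 0.26, adjusted p = 0.000642), delayed (1.69, SE 0.25, adjusted p = 7.68e-06) and Rag2-/- mice (1.36, SE 0.30, adjusted p = 0.00459). None of the 4 target genes Bcl2, Pim1, Myc and Ccnd2 was called in any of the 5 comparisons. The Socs3 call in NSG mice was lost without stroked replicate 2 (0.86) or non-stroked replicate 4 (0.98), and that in the acute group without replicate 1 (0.79) or when only the groups compared were fitted (adjusted p = 0.104).

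Over the 22 samples that are not NSG, the genes whose z-scored log2 CPM lay closest to that of Il2rg were H2-D1 and H2-K1, which encode MHC class I heavy chains, Psmb8, a subunit of the immunoproteasome, Rac2 and Gbp2. Their root mean square differences from Il2rg were 0.161, 0.171, 0.192, 0.210 and 0.210. Ptprc ranked 50 of 17030 genes by this measure, Il2rb 245, Il21r 423 and Il7r 652. The points share libraries, and among these 22 samples the stroked ones lie above the non-stroked ones in Il2rg. Acute replicates 1 and 2 do so only just, at 0.998 and 1.08 CPM against at most 0.991 CPM without stroke.

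Other cell markers moved with the receptor genes. Ptprc was 2.53 to 3.08 CPM in non-stroked and 9.75 to 18.8 CPM in stroked WT mice, and 18.1 to 33.2 CPM in the delayed group. The 7 microglia and macrophage genes summed to 356 to 448 CPM in stroked WT, 438 to 543 CPM in delayed, 339 to 429 CPM in Rag2-/- and 362 to 499 CPM in NSG mice after stroke, all above the 183 to 277 CPM of non-stroked mice. Fibroblast genes, at 25.1 to 88.2 CPM in all non-stroked samples, reached 203 to 473 CPM in stroked WT mice. Of 7 T cell genes 5 were tested, of which Cd3e, Cd3g and Cd8a rose in WT mice and these and Cd4 in the delayed group, with none called in the acute group, Rag2-/- or NSG mice. The monocyte and dendritic cell genes Ccr2, Ly6c2 and Itgax rose in WT mice and the delayed group, Ccr2 and Itgax in the acute group, and Itgax in Rag2-/- and NSG mice. The part of these cells in the rise of the receptor genes was not tested.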

How the data were processed

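RNA from mouse brain tissue was measured in 29 samples of 8 groups, with the groups taken from the genotype and treatment labels. The study selected polyA RNA and made stranded libraries, and alignment and counting were done at a sequencing center. What the authors deposited are raw counts per Ensembl gene, without normalization. The aligner, the genome build and the use of strand in counting are not given in the sources used here, so overlapping genes can share reads. Symbols, positions and exon lengths came from GENCODE M21 (GRCm38), which holds 25712 of the 25746 IDs. Its match to the build of the counts was checked by these IDs alone.

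Counts were tested in R 4.3.3 with edgeR 4.0.16 (TMM normalization, filterByExpr, quasi-likelihood F test), in 1 fit of all groups over 17031 genes, and p-values were adjusted by Benjamini-Hochberg over these genes. SEs were derived from the fold change and its F statistic (absolute log2 fold change over root F). The 10 genes and all lists were chosen with earlier results of these data known. Every one of the 10 is named, and of the other pathway genes those called after stroke or near 0 counts. A result on 1 further pathway gene is not reported here. A response difference is the stroke change of a strain minus that of another. CPM uses TMM library sizes, and RPKM divides CPM by merged exon length. For likeness to Il2rg, log2 CPM was computed with prior count 2. The labels do not say that replicates are separate animals, and the study's methods list fewer NSG and tacrolimus mice for RNA sequencing than there are samples, so samples, also stroked and non-stroked NSG ones, may share mice. The p-values measure the spread between samples. The alternatives were RLE size factors, no count filter, a mean of at least 1 CPM, DESeq2 1.42.0, the cohort as a covariate, only the groups compared, Imm2 alone, no minimum fold, a replicate block and leaving out each sample. The fit was checked on simulated counts. Depth differs between cohorts, with a median total of 37223696 in Imm2 and 23155303 in TF.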

Additional observations from a re-analysis of the deposited data

Results flagged for a closer look

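Dixon's test for an outlying sample was applied to 40 sets of values, those of the 10 genes in the 4 groups of 4 or 5 samples, and 2 sets passed its 95% limit. Chance alone flags about 1 in 20 sets. Il7r was low in stroked WT replicate 1, at 1.04 CPM (41 counts), while the 3 other samples of the group lay between 2.48 and 2.57 CPM (57 to 92 counts). Jak3 was low in stroked WT replicate 2, at 6.61 CPM, while the others lay between 8.13 and 8.43 CPM. Both samples belong to the Imm2 cohort.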

How the results depend on the processing

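The low counts of Il2ra, Il2rb and Il15 and the groups of 3 to 5 samples limit what could be detected. Gene-level values were recomputed for 96 results in 1485 fits: 1347 kept direction and call, 90 lost the call, 34 gained it and 14 changed sign. The cause of these changes was not tested, except that a mean of at least 1 CPM removes low members from the test. Member counts under the alternatives, here and above, stand without the share of all genes called in the same fit. They are therefore not set against the genes as a whole.

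With a mean of at least 1 CPM, 4 members were called in the delayed group, 1 after stroke in NSG mice, 1 in non-stroked NSG against WT mice, 0 in non-stroked NSG against Rag2-/- mice and 1 in stroked NSG against WT mice. The cohort as a covariate left 0 in the acute group and 1 in stroked NSG against WT mice. Fitting only the groups compared gave 0 in the acute group, 1 after stroke in NSG mice, 1 in non-stroked NSG against WT, 2 in non-stroked NSG against Rag2-/-, 0 in delayed against acute and 1 in stroked NSG against WT mice. Imm2 alone gave 0 in the acute group, 2 in non-stroked NSG against Rag2-/- and 1 in stroked NSG against WT mice, and it holds no delayed samples. No minimum fold gave 5 after stroke in NSG mice and 5 in delayed against acute. DESeq2 gave 2 in non-stroked NSG against Rag2-/- mice and 1, Il2rb, in the response difference of NSG and WT mice.

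Leaving out each sample in turn gave 0 to 5 members in the acute group, 1 to 2 after stroke in Rag2-/- mice, 0 to 3 in acute against stroked WT, 0 to 5 in delayed against acute, 1 to 3 in stroked NSG against WT mice and 0 to 1 in the response difference of NSG and WT mice. The values that changed sign in such fits were all small and uncalled: Il2rg after stroke in NSG mice ran from -0.033 to 0.17, Il2rb there from -0.51 to 0.19, Gm20489 there from -0.12 to 0.072, Il2rg in non-stroked NSG against WT mice from -0.00853 to 0.20, Il2rg in stroked Rag2-/- against WT mice from -0.16 to 0.080, and Stat5a in the acute group from -0.042 to 0.67. Il2rg in stroked Rag2-/- against WT mice was also 0.19 with the cohort as a covariate and 0.017 in Imm2 alone.

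Titles of non-stroked mice share replicate numbers between strains. Between strains, samples with the same number did not deviate together (r from -0.233 to 0.118). For Rag2-/- against WT mice both values of r are 0.107 by construction, because deviations from a mean of 2 samples mirror each other. Whether stroked and non-stroked samples share mice was not tested. With the number as a replicate block, 1 member was called in non-stroked NSG against WT mice and 2 in NSG against Rag2-/- mice, and fits of these samples that leave the block out gave 1 and 2 as well.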
